A study of Mus musculus with 2 samples.

Results

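The T cell receptor alpha V genes analysed here are the 9 rows with a Trav symbol among the 12432 genes measured in single CD4 T cells. The mouse annotation GENCODE vM21 lists 128 Trav genes. The members therefore cover only a small share of the locus, and the remaining V genes were not analysed here. They are Trav13d-1, Trav13-2 and Trav13-3, Trav8-1, Trav8-2 and Trav8d-1, and Trav1, Trav16 and Trav15-2-dv6-2. They were taken by symbol and not by any measured value. A further V row, B230359F08Rik, has no Trav symbol although it is annotated as a T cell receptor V gene, and was followed beside them.

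The cells came from C57BL/6 mice that carried Candida albicans, a gut-colonizing fungus, engineered to express the 2W1S peptide. CD4 T cells binding that peptide were sorted from spleen and peripheral lymph nodes, captured on a Fluidigm C1 instrument and converted to cDNA with SMART-Seq v4 chemistry, which reads along whole transcripts. All 178 cells belong to 1 group with the same strain and colonization, in a March capture of 82 cells and an April capture of 96 cells, and uncolonized mice were not analysed here. The column names also show 4 runs, Mar1 with 25 cells, Mar17 with 57, Apr13 with 48 and Apr21 with 48. The labels do not give the number of mice behind a capture, so the difference between captures may be technical or biological, which cannot be told apart.

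Each developing T cell assembles its alpha chain gene by joining 1 V segment to 1 J segment upstream of the constant gene Trac, and the beta chain gene from V, D and J segments upstream of Trbc1 or Trbc2. V segments with the same number form a subgroup of related sequences. In the C57BL/6 mouse much of the V region has been copied, and the copies carry a d or an n in their names. Both alpha alleles can rearrange, so a T cell may hold transcripts of a second alpha chain. Trav1 is the V segment of the receptors of mucosal-associated invariant T cells, and segments with dv in their names can serve alpha or delta chains.

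All members lie on the plus strand of chromosome 14 in build mm10. Trav13d-1 (ENSMUSG00000076778) is at chr14:52851290-52851866 and Trav8d-1 (ENSMUSG00000076770) at chr14:52778447-52778995. Trav8-1 (ENSMUSG00000076831) is at chr14:53469756-53470232, Trav13-2 (ENSMUSG00000076846) at chr14:53634829-53635399 and Trav15-2-dv6-2 (ENSMUSG00000076848) at chr14:53649404-53649994. Trav13-3 (ENSMUSG00000082663) at chr14:53729558-53730074 and Trav8-2 (ENSMUSG00000085302) at chr14:53738375-53738838 are annotated as V pseudogenes, while the other 7 members are annotated as V genes. Trav16 (ENSMUSG00000076855) is at chr14:53743104-53743705, and Trav1 (ENSMUSG00000076758), the most upstream member, is at chr14:52427928-52428876. B230359F08Rik (ENSMUSG00000087666) is at chr14:53795357-53795963, downstream of all members, and Trac at chr14:54220521-54224206.

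The sequences of the V exons (the second exon of each gene model, GENCODE vM21 transcripts, build mm10, plus strand, 5′ to 3′) are shown for the Trav13 rows and B230359F08Rik because their signals occurred together. Capitals mark bases that differ from Trav13d-1 in a pairwise alignment or have no partner in it.
Trav13d-1: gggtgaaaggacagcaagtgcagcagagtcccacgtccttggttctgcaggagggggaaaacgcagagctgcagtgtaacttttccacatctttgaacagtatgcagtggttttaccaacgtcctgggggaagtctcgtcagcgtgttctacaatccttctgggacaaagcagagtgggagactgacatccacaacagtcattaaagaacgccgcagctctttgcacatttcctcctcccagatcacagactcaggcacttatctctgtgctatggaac
Trav13-2: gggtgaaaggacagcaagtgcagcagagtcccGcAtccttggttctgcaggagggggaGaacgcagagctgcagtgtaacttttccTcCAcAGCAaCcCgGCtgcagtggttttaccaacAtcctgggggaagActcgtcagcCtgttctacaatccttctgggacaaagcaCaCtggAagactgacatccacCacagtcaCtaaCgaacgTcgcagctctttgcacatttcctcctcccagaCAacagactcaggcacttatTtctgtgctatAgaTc
Trav13-3: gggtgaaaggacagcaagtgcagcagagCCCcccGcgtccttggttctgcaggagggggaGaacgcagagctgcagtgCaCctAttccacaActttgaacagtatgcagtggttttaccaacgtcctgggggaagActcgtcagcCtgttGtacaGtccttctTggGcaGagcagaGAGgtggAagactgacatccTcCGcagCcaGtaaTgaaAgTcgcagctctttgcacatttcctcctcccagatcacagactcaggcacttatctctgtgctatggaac
B230359F08Rik: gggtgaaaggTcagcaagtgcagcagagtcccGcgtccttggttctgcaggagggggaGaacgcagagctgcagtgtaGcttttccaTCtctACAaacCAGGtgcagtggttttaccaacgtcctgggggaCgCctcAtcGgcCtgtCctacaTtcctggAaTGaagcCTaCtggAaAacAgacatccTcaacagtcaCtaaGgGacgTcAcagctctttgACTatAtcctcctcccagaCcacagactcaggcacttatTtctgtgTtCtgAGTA

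The Trav13-2 exon differed from that of Trav13d-1 at 29 of 279 aligned bases, an identity of 89.6%. Trav13-3 was 90.1% identical to Trav13d-1, and B230359F08Rik was 82.1% identical to Trav13d-1 and 84.2% identical to Trav13-2. The closest annotated relative of Trav13d-1 was Trav13n-1, at 99.6% identity and 1 mismatch, and that of Trav13-2 was Trav13-4-dv7, at 95.7%. Neither is in the table. The 3 Trav8 exons are shown for the same reason, with capitals for bases that differ from Trav8-2.
Trav8-2: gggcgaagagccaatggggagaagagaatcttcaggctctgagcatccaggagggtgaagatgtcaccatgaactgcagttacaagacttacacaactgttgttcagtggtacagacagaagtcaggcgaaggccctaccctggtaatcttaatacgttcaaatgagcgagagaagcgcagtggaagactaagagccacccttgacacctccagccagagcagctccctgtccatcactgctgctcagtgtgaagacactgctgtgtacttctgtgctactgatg
Trav8-1: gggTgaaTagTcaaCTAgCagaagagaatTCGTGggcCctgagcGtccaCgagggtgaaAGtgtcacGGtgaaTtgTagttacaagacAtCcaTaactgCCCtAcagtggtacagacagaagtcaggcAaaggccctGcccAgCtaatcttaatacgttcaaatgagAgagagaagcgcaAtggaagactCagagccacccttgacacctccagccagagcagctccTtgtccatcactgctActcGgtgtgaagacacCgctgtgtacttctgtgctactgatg
Trav8d-1: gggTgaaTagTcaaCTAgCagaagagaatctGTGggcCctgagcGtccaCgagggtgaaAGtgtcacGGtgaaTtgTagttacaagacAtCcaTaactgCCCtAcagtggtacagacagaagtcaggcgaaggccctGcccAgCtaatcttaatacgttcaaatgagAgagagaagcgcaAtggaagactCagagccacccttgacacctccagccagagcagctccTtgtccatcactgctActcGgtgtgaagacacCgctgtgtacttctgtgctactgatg

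Trav8-1 and Trav8d-1 differed by 3 bases of 285, an identity of 98.9%, and both stood further from Trav8-2, at 86.3% and 87.4%. Between the Trav8 and Trav13 subgroups the identity was 53.6% to 55.6% over the 9 pairs of members. How the submitters assigned reads that match several copies is not given in the sources used here. As a measure of how far copies could share reads, stretches of 50 bases were taken from the whole spliced gene model of each member and of B230359F08Rik. They were searched for in all GENCODE vM21 transcripts of other genes. For Trav13d-1, 84.1% of its stretches were also present in at least 1 of 11 other genes, and 38 of its 347 stretches in a gene of the table. The share was 85.0% for Trav13-3, 60.6% for Trav8-1, 48.2% for Trav16, 44.2% for Trav8d-1, 38.3% for Trav15-2-dv6-2, 35.4% for Trav8-2 and 24.0% for Trav13-2. Trav1 shared none of its 322 stretches. Only 17 stretches were common to Trav13-2 and Trav13d-1, against 232 common to Trav13d-1 and Trav13n-1. Trav13-4-dv7, outside the table, had 60 stretches in common with Trav13-2, 88 with Trav13d-1 and 17 with B230359F08Rik. Whether its reads entered these rows was not tested. Among genes of the table, Trav8-1 and Trav8d-1 had 155 in common and Trav13-3 shared 18 of its 287. Trav8-2, Trav16 and Trav15-2-dv6-2 shared 0 with any gene of the table. A value in the row of any member except Trav1 is therefore uncertain as to which copy it came from. The shared part was largest for Trav13-3, Trav13d-1 and Trav8-1.

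Values are given on a linear scale, 2 to the power of the deposited log2 value minus 1, whose sums per cell lay between 892206 and 979888. A cell was counted as carrying a V row at a linear value of at least 10. Intervals in parentheses are exact Clopper-Pearson 95% intervals and cover counting error only.

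The sorted cells carried T cell transcripts. Trac reached 10 in 163 of 178 cells, 91.6% (86.5% to 95.2%), and Cd4 in 50% of the cells with and 50% of the cells without a Trav row. The summed linear value of the 8 CD4 T cell markers, all in the table, ranged from 1531 to 44921 in the 136 cells with a Trav row and from 115 to 42606 in the 42 others. Of 8 gamma delta markers only Tcrg-C1 was in the table, and it reached 10 in 1 cell of each class. The 2 CD8 markers summed to a median of 0 in both classes, but Cd8b1 reached 10 in 14 of 136 cells with a Trav row, 10.3%, with a highest value of 1654, and in 5 of 42 others, 11.9%. Cd8a reached 10 in 7 and 1 cells. Ebf1, the 1 of 5 B cell markers in the table, reached at most 23.3 in cells with a Trav row and 1444 in the others. In 3 cells of Mar1 mitochondrial genes held over 50% of the signal, and none of these 3 carried a Trav row.

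Trav13d-1 was the most widely carried member. It reached 10 in 104 of 178 cells, 58.4% (50.8% to 65.8%), with a median of 413 and a highest value of 6846 in those cells. By run it was carried by 13 of 25 cells in Mar1, 25 of 57 in Mar17, 35 of 48 in Apr13 and 31 of 48 in Apr21. Both April runs, at 72.9% and 64.6%, thus lay above both March runs, at 52% and 43.9%. Trav13-2 followed in 74 cells, 41.6% (34.2% to 49.2%), with a median of 311 and a highest value of 1627. Its runs stood at 40% in Mar1, 33.3% in Mar17, 47.9% in Apr13 and 45.8% in Apr21. Its highest value was thus far below that of Trav13d-1, although their medians in carrying cells were close. Trav13-3, the Trav13 pseudogene, was carried by 23 cells, 12.9% (8.37% to 18.8%), mostly at low values, with a median of 42.8 and only 7 cells at 100 or more. The runs held it in 3 of 25, 8 of 57, 6 of 48 and 6 of 48 cells, so its share hardly moved between captures.

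Among the Trav8 rows, the row of the annotated pseudogene Trav8-2 dominated. It was carried by 29 cells, 16.3% (11.2% to 22.6%), and 24 of them held it at 100 or more, with a median of 879. Its highest value, 9802 in an Apr21 cell, was the highest of any member in any cell. The runs held it in 1 of 25, 7 of 57, 9 of 48 and 12 of 48 cells, in the order Mar1, Mar17, Apr13 and Apr21. The pseudogene label was thus no bar to a high value in the table, and nothing in the values says whether these transcripts had an open reading frame. Trav8-1 was carried by 11 cells, 6.18% (3.12% to 10.8%). In 2 of them, from Apr13 and Mar17, it stood at 1837 and 1552, and in the other 9 at 12.4 to 85.1. Trav8d-1 was carried by 5 cells, at 1153, 674, 496, 400 and 92.0, of which 4 were March cells.

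The remaining members were rare. Trav16 was carried by 11 cells, 6.18%, of which 8 held at least 100 and the highest, in an Apr21 cell, 6414. Trav1 was carried by 3 cells, all of the April capture, at 7271, 786 and 372, and its other 4 values above 0 were at most 3.77. Trav15-2-dv6-2 was carried by 3 cells at only 58.4, 41.5 and 33.8, so it never reached 100. In the 3 Trav1 cells Klrb1c and Il18rap, markers of innate-like T cells, were at 0. In the 3 Trav15-2-dv6-2 cells Tcrg-C1 was at 0.

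**Figure D1:**
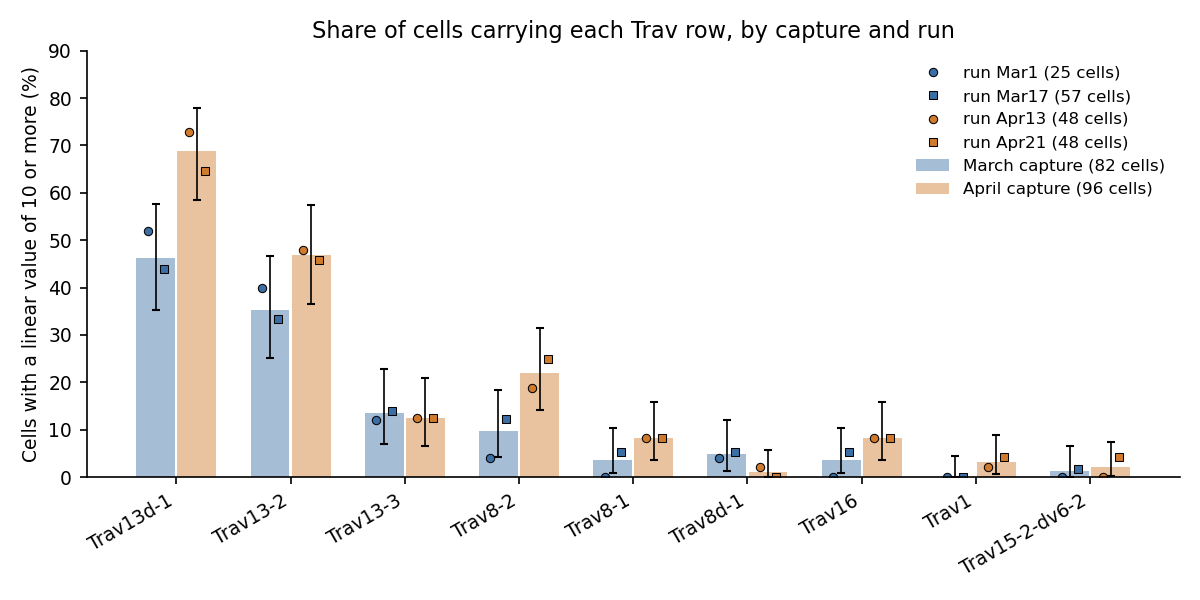
Share of cells with a linear value of at least 10 for each Trav row (vertical axis, percent). Bars show the March and April captures with exact 95% intervals, and points show the 4 runs. Trav13d-1 stands at 46.3% in March and 68.8% in April, Trav13-2 at 35.4% and 46.9% and Trav8-2 at 9.76% and 21.9%, and the remaining rows at 13.4% or less.

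For 6 of the 9 members (Trav1, Trav8-1, Trav8-2, Trav13-2, Trav13d-1 and Trav16) the share of carrying cells was higher in both April runs than in both March runs, and for Trav8d-1 it was lower in both. Over all 12432 genes the same pattern was met upward by 24% and downward by 9.25%. With 2 captures no test of this difference can be made. Trac moved the same way, with a median linear value of 1608 in March and 3490 in April cells, and its part in the difference was not tested. Among cells with Trac at 10 or more, Trav13d-1 was carried by 37 of 70 in March, 52.9%, and 65 of 93 in April, 69.9%. The median member was carried by 6.18% of cells, and the median gene of the table reached 10 in 7.87%.

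At least 1 Trav row was carried by 136 of 178 cells, 76.4% (69.5% to 82.4%), with 64.6% (53.3% to 74.9%) in March and 86.5% (78.0% to 92.6%) in April. The commonest number was not 1. In all, 31 cells carried 1 Trav row, 87 carried 2, 14 carried 3 and 4 carried 4, so that 59.0% (51.4% to 66.3%) of all cells carried at least 2. When rows of the same subgroup were counted once, 115 cells carried 1 subgroup, 19 carried 2 and 2 carried 3. Only 11.8% (7.45% to 17.5%) of cells then carried more than 1. Trav13 alone was carried by 92 cells and Trav8 alone by 20. Trav16 was seen alone in 2 cells and Trav1 alone in 1, while Trav15-2-dv6-2 was always accompanied by a Trav13 row.

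The rows seen together were mainly those of Trav13. Trav13-2 was carried together with Trav13d-1 in 71 cells, which is 95.9% of the Trav13-2 cells and 68.3% of the Trav13d-1 cells, where the product of their shares gives 43.2 cells. In these cells the log2 ratio of Trav13-2 to Trav13d-1 had a median of 0.20 with quartiles of -0.10 and 0.46, and 63 of the 71 lay within 1 log2 unit of equality. The median was 0.20 in March and 0.15 in April. Their 2 gene models are of similar length, 390 and 396 bases. Both share stretches with Trav13-4-dv7, and whether reads of a single gene entered both rows was not tested. A separate set of 33 cells carried Trav13d-1 without Trav13-2, in 20 of which it was the only Trav13 row, with a median of 606. By contrast, 3 cells carried Trav13-2 without Trav13d-1.

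B230359F08Rik accompanied this pair. It was carried by 43 cells, 24.2%, of which 42 also carried both Trav13-2 and Trav13d-1. Its level was lower, with a median log2 ratio of Trav13-2 to B230359F08Rik of 3.34 (range 1.37 to 6.24). Of all genes of the table it was the one most like Trav13-2 over the 178 cells, with Pearson's r of 0.81 for log2 values centred within capture, 0.79 in March and 0.83 in April. Next were Trav13d-1 (r = 0.56) and Trac (r = 0.33). The genes most like Trav13d-1 were Trav13-2, B230359F08Rik (r = 0.50) and Trav13-3 (r = 0.44). These correlations are over cells of 2 captures, which share depth and related sequences, and are given as a description.

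Trav13-3 and Trav8-1 were also mostly seen beside a stronger relative. Trav13-3 was carried with Trav13d-1 in 22 of its 23 cells, with a median log2 ratio of Trav13-3 to Trav13d-1 of -6.13. The spread was wide, from -7.23 to 5.61, and Trav13-3 was the highest Trav row in 6 cells, of which the highest held 1931. Trav8-1 was carried with Trav8-2 in 9 of its 11 cells, always far below it, with a median log2 ratio of -5.60 (range -7.49 to -5.13). In the other 2 Trav8-1 cells, where it was high, Trav8-1 was carried with Trav8d-1 at log2 ratios of 1.89 and 1.96. Those are the only 2 cells with both rows of the near-identical pair, and the other 3 Trav8d-1 cells carried no second Trav8 row. Pairs from different subgroups went both ways. Trav8-2 and Trav13d-1 were together in 6 cells, where the product of shares gives 16.9, and Trav8-2 and Trav16 also in 6 cells, where it gives 1.79. Another subgroup was carried by 9 of the 11 Trav16 cells, 3 of 3 Trav15 cells and 2 of 3 Trav1 cells, against 14 of 34 Trav8 and 16 of 108 Trav13 cells.

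**Figure D2:**
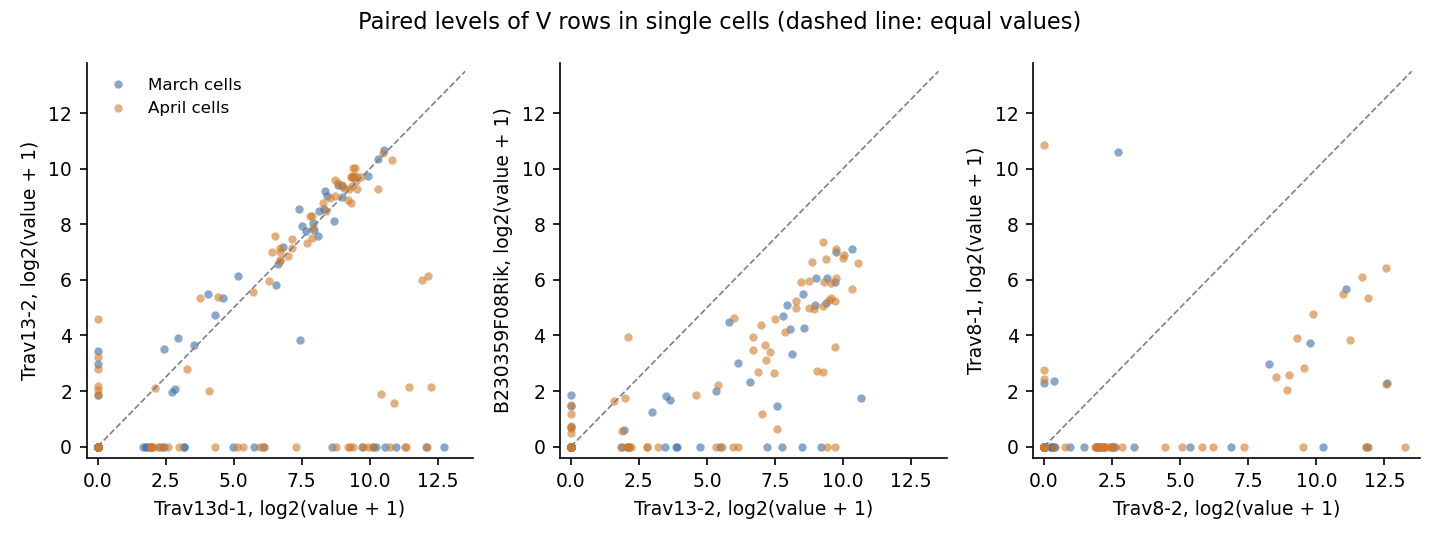
Log2(value + 1) of paired V rows, 1 point per cell, March and April cells coloured apart, with a dashed line of equal values. Trav13-2 follows Trav13d-1 along the line in most cells that hold both (left), B230359F08Rik lies below Trav13-2 by a median of 3.34 (middle), and Trav8-1 lies over 5 units below Trav8-2 in the 9 cells that carry both, with 2 high Trav8-1 cells apart (right).

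The dominant segment of each cell was taken as its highest Trav row. It was Trav13-2 in 48 of the 136 carrying cells, Trav13d-1 in 46, Trav8-2 in 23, Trav13-3 in 6, Trav16 in 6, Trav8d-1 in 3, Trav8-1 in 2, and Trav1 and Trav15-2-dv6-2 in 1 each. The capture shares were close for the 2 most frequent, 37.7% and 33.7% for Trav13-2 and 30.2% and 36.1% for Trav13d-1 in March and April. By run Trav13-2 led 53.3% of the 15 carrying cells in Mar1, 31.6% in Mar17, 31.7% in Apr13 and 35.7% in Apr21. Trav13d-1 led 33.3%, 28.9%, 39.0% and 33.3% in the same order. The margin of the highest over the second row, a difference of log2(value + 1), had a median of 1.14. By run the median was 0.37 in Mar1, 1.29 in Mar17, 2.13 in Apr13 and 0.91 in Apr21. Over all carrying cells the margin was under 1 in 64 cells, 47.1%, and 5 or more in 46 cells. In the 48 cells led by Trav13-2 the median margin was 0.40, and Trav13d-1 was second in 47 of them, so the dominant segment of these cells is not settled by the values. The cells led by Trav13d-1 had a median margin of 4.93, with Trav13-2 second in 17 and Trav13-3 in 14, and those led by Trav8-2 had 6.04, with Trav8-1 second in 11.

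Between subgroups the margin was wide. With linear values summed over each subgroup, the highest exceeded the second by a median of 8.22, with 8.29 in March and 8.19 in April. It was under 1 in 5 cells and 5 or more in 112 of 136, 82.4%. Trav13 was the highest subgroup in 100 cells, Trav8 in 28, Trav16 in 6, and Trav1 and Trav15 in 1 each.

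**Figure D3:**
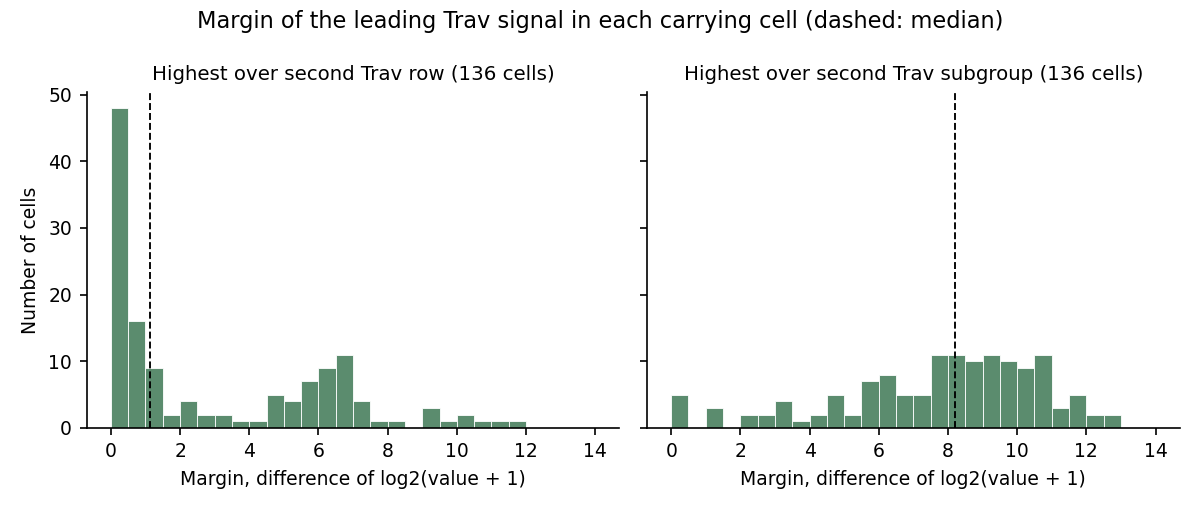
Number of cells (vertical axis) by margin of the highest over the second Trav row (left) and Trav subgroup (right), in log2 units, for the 136 cells that carry a Trav row. The row margins pile up near 0 with a median of 1.14, and the subgroup margins have a median of 8.22.

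The 21 cells with more than 1 subgroup were 7 with Trav8 and Trav13, 4 with Trav8 and Trav16, 3 with Trav13 and Trav15, 3 with Trav13 and Trav16, 2 with all of Trav8, Trav13 and Trav16, 1 with Trav1 and Trav13, and 1 with Trav1 and Trav8. They were 4 March cells, all of Mar17, and 17 April cells. The second subgroup reached 100 in 11 of them. In an Apr21 cell Trav16 stood at 3280 and the Trav13 sum at 2766, and in a Mar17 cell the Trav8 sum stood at 1157 and the Trav13 sum at 848. In others the second subgroup was faint, such as an Apr13 cell with Trav8 at 3648 and Trav16 at 15.8. The median margin was 2.98. The median number of genes detected was 5072 in these cells and 5025 in the 115 cells with 1 subgroup, and the median Trac value was 3733 and 3165. Whether they were 1 cell or 2 per chamber was not tested.

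The table also holds 39 Traj and 14 Trbj rows and no Trbv row. J rows are short. The smallest value above 0 was 26.0 among Traj rows and 43.2 among Trbj rows, so any detected J row passed 10. A cell had a median of 2 Traj and 2 Trbj rows. A J row can also carry signal from transcripts that are not joined to a V segment, and the table cannot tell these apart from joined ones.

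Trav8-2 cells stood apart by Traj18, 1 of the alpha chain J segments. Traj18 was carried by 22 of 29 Trav8-2 cells, 75.9% (56.5% to 89.7%). It was carried by 12 of the 107 cells with other Trav rows only, 11.2% (5.93% to 18.8%), and by 11 of the 42 cells with no Trav row, 26.2% (13.9% to 42.0%). In March the share was 8 of 8 Trav8-2 cells against 15 of 74 cells without the row, and in April 14 of 21 against 8 of 75. By run the Trav8-2 cells with Traj18 were 1 of 1 in Mar1, 7 of 7 in Mar17, 5 of 9 in Apr13 and 9 of 12 in Apr21. In every run the share in Trav8-2 cells was above that in the cells without the row. Trav8-2 itself had a median of 1072 in the 22 cells with Traj18 and 160 in the 7 without. Traj18 was also the gene most like Trav8-2 over all cells, with r = 0.59. It was the highest Traj row in 8 of 23 cells led by Trav8-2, and in 10 of the 133 cells with a highest Trav, Traj and Trbj row. In cells with any Trav13 row Traj18 was carried by 16 of 108, 14.8%. Traj18 is the J segment of the invariant receptor of natural killer T cells, whose V segment, Trav11, was not analysed here.

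Trbj rows, which belong to the beta chain, were set against the same V classes. Trbj2-7, the most frequent at 87 of 178 cells, was carried by 21 of 29 Trav8-2 cells, 72.4% (52.8% to 87.3%), and by 66 of 149 others, 44.3% (36.2% to 52.7%). In March the counts were 6 of 8 against 32 of 74, and in April 15 of 21 against 34 of 75. Trbj2-5 was carried by 50 of 104 Trav13d-1 cells, 48.1% (38.2% to 58.1%), and 18 of 74 others, 24.3% (15.1% to 35.7%). Within captures this was 34.2% against 20.5% in March and 56.1% against 30% in April, so the direction was the same in both. The cells with other Trav rows only held it in 10 of 32, 31.2%, with an interval that overlaps that of the Trav13d-1 cells. Trbj2-4 was carried by 22 of 74 Trav13-2 cells, 29.7% (19.7% to 41.5%), and 12 of 104 others, 11.5% (6.11% to 19.3%). In March it was 27.6% against 15.1%, and in April 31.1% against 7.84%. All 3 Trav1 cells carried Trbj2-5, and all 3 Trav15-2-dv6-2 cells carried Trbj2-7. Trbj2-2, carried by only 12 of 178 cells, 6.74%, was found in 0 of 34 Trav8 cells and in 8 of 108 Trav13 cells. These counts are too small to set the 2 subgroups apart. Many pairs of a V and a J row were computed, cells are not replicates, and no test was made.

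**Figure D4:**
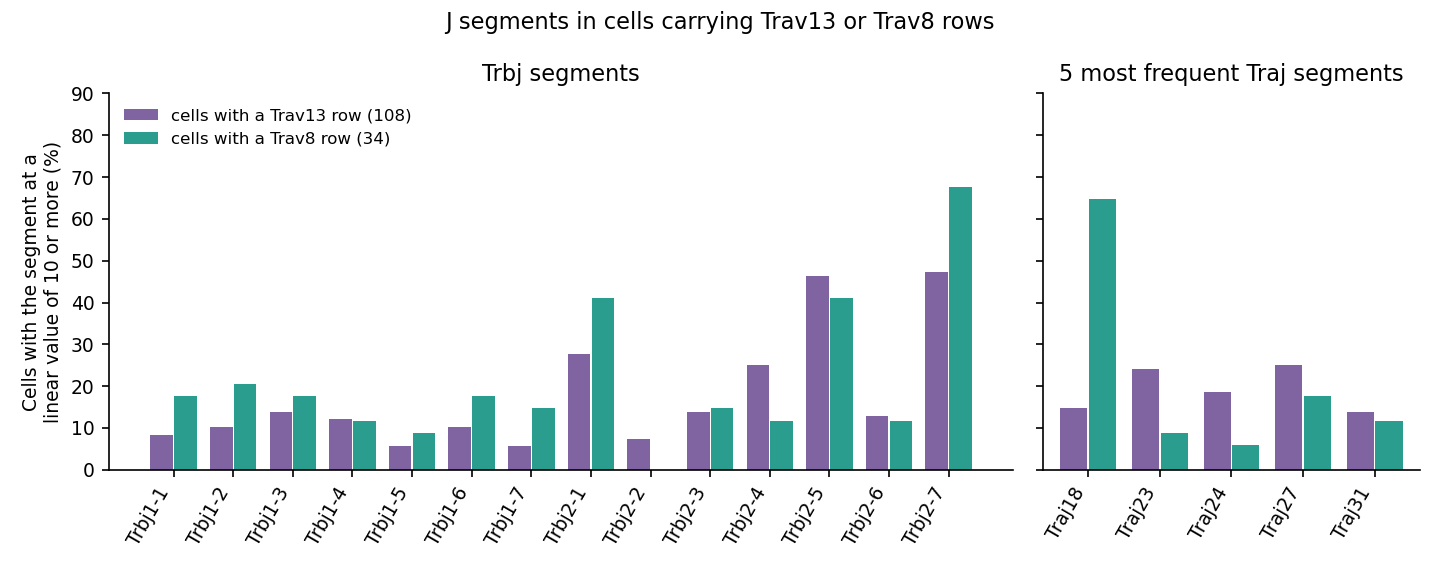
Share of cells (vertical axis, percent) with each Trbj row (left) and the 5 most frequent Traj rows (right) among the 108 cells with a Trav13 row and the 34 cells with a Trav8 row. Traj18 stands at 64.7% of Trav8 and 14.8% of Trav13 cells, Trbj2-7 at 67.6% and 47.2%, and Trbj2-4 at 11.8% and 25%.

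Taking the highest Trav, Traj and Trbj row of a cell as its combination, 133 cells had all 3 and held 111 combinations. Of these 97 were seen in 1 cell and 14 in 2 or more, which covered 36 cells. The most frequent were Trav8-2 with Traj18 and Trbj2-7, in 2 Mar17 and 2 Apr21 cells, and Trav13d-1 with Traj23 and Trbj2-5, in 2 Apr13 and 2 Apr21 cells. Trav13-2 with Traj23 and Trbj2-5 was seen in 3 cells, and Trav13d-1 with Traj31 and Trbj2-5 in 3 cells, all of Apr21. Of the 14, 12 were seen in 2 or more runs. Since Trav13-2 and Trav13d-1 were often near equal, the order changes when the subgroup stands in for the row. Trav13 with Traj23 and Trbj2-5 was then seen in 7 cells, with Traj27 and Trbj2-5 in 6 and with Traj31 and Trbj2-5 in 5, all above the 4 cells with Trav8, Traj18 and Trbj2-7. The combinations then numbered 101, of which 18 were seen in 2 or more cells. The junction sequences that would define a clone were not analysed here.

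The share of cells with a Trav row was larger at higher Trac levels. It was carried by 0 of the 6 cells with Trac at 0, which allows a share of up to 45.9%. It was carried by 2 of 9 cells with Trac above 0 and under 10, by 3 of 10 from 10 to under 100, by 11 of 18 from 100 to under 1000, and by 120 of 135, 88.9% (82.3% to 93.6%), at 1000 and over. The remaining 15 cells with Trac of at least 1000 thus held no listed Trav row at 10. Which V segment they used was not analysed here.

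The 136 cells with a Trav row were compared with the 42 others by limma on mean log2 values per capture and class (53 and 29 cells in March, 83 and 13 in April), over 10789 genes. The 9 members define the classes and were not tested. Trac was the only gene called at an adjusted p under 0.05, which is 0.00927% of the genes. Its mean log2 value was 10.69 in cells with and 6.11 in cells without a Trav row in March, and 11.60 and 7.77 in April. The difference was 4.20 ± 0.56 (SE), with a limma Benjamini-Hochberg adjusted p of 6.00e-10 and n = 2 captures. It was 4.57 in March and 3.83 in April. With 1 residual degree of freedom, this SE and p draw on the variance of all genes and do not measure the spread of Trac between captures. Without the capture as a block Trac was not called, with an adjusted p of 0.328 in limma. Among the cells with Trac at 1000 or more the difference was 0.061 (limma adjusted p = 0.994) and Trac was not called. Those cells were chosen by Trac itself, which narrows the range of Trac in advance, so this value is no check of the difference. Trac and a rearranged Trav segment are parts of the same transcript, and fewer reads on that transcript and a V segment outside the table cannot be told apart for a single cell.

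**Figure D5:**
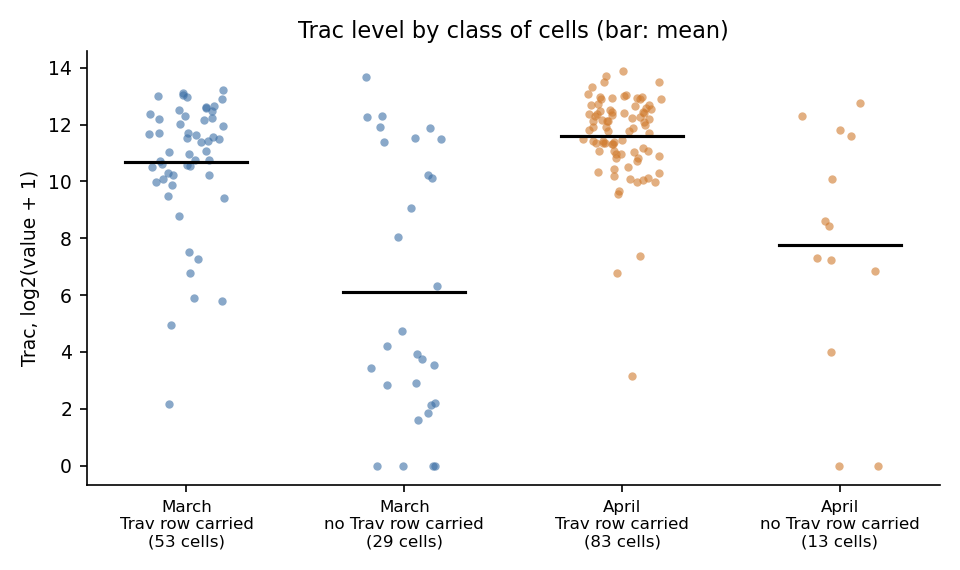
Trac level, log2(value + 1), of every cell with and without a Trav row at 10 in the March and April captures, with a bar at the mean of each class. The class means are 10.69 and 6.11 in March and 11.60 and 7.77 in April, and cells without a Trav row spread from 0 to the upper range of the carrying cells.

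No other gene of the receptor was called. Of the 7 genes of the receptor complex tested, Trac alone passed, and the median difference was 0.70 against 0.04 over all genes tested. Trbc2, a beta chain constant gene, stood at 1.44 ± 0.40 (SE, limma adjusted p = 0.235), and Trbc1, the other, at -1.61 ± 0.68 (adjusted p = 0.548). The CD3 genes Cd3d, Cd3e and Cd3g, whose products carry the receptor's signal, stood at 0.95, 0.70 and -0.39, and the sign of Cd3e and of Cd3g differed between the captures. Of the 10 proximal signalling genes 0 were called, and the median was 0.46. They ranged from -0.09 for Cd5, an inhibitory receptor, to 1.56 for the costimulatory receptor Cd28. The kinase Zap70 stood at 1.08, but at -0.24 in March and 2.41 in April. A gene that missed the threshold in these 4 class means is not shown to be alike in the classes. Of 11 Trbj rows 0 were called (median 0.31) and of 7 Traj rows 0 (median 0.34). The smallest p-values among genes not called were those of B230359F08Rik (1.75, adjusted p = 0.0521), Nhp2 (1.68) and Atp5e (2.82), higher in cells with a Trav row, and of Trbj1-1 (-2.14, adjusted p = 0.0521), Trim23 (-1.58) and Mast2 (-1.25), lower in them. B230359F08Rik was carried almost only beside Trav13-2 and Trav13d-1, which help define the classes, so its higher value follows from how the classes were made. With limma, 817 of the 10789 genes had an unadjusted p under 0.05.

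For the rarer members the most similar genes over the 178 cells were chosen by the same measure. For Trav8-1 they were Trav8-2 (r = 0.49), Trav8d-1 (r = 0.47) and Ube2m (r = 0.40), and for Trav8d-1 they were Trav8-1, Timm29 (r = 0.44) and Rsc1a1 (r = 0.44). For Trav16 they were Rsad2 (r = 0.42), Dph1 (r = 0.40) and Rab6b (r = 0.40), of which Dph1 and Rab6b stood at -0.03 and -0.05 in March, so these rest on April cells. For Trav1 the first was Gm15261 (r = 0.52), and for Trav15-2-dv6-2 it was B230369F24Rik (r = 0.61). For Trav13-3 Sh2d4a (r = 0.39) and Ccdc142os (r = 0.36) followed Trav13d-1, and for Trav8-2 Zbtb37 (r = 0.32) followed Trav8-1. With 3 to 11 carrying cells, the values of the rare members rest on single cells.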

How the data were processed

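Sorted single CD4 T cells of 2 captures (1 group, replicates 1 and 2) were analysed. The authors deposited log2 values for 12432 genes in 178 cells. The submitters' processing notes name build mm10, and which aligner and counter were used is not given in the sources used here. Back-transformed totals of 892206 to 979888 per cell led to reading each value as log2(x + 1) of a TPM-like x, an inference with no header behind it. Read depth is unknown, so precision is given only as spread and as exact intervals. Of the Ensembl IDs 12163 were matched to symbols and 269 were not, and 0 columns were unmapped. Each cell had a column of its own, and no doublet caller was run.

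V exons were aligned pairwise with Biopython 1.88 and stretches of 50 bases compared over GENCODE vM21 transcripts. Shares used SciPy 1.17.1, numpy 2.4.6, pandas 2.3.3 and Python 3.11.15, and figures used matplotlib 3.10.9. Classes were compared with limma 3.58.1 in R 4.3.3 on mean log2 values per capture and class, with the capture as a block, because the classes were made within each capture. The fit used a mean-variance trend, 1 residual degree of freedom, genes detected in at least 10% of cells and two-sided Benjamini-Hochberg adjustment at 0.05. Differences are of log2(value + 1), zeros counted, and not folds. The fit was tested on simulated data with known shifts.

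The named genes were all 9 members, the J and constant rows, the 3 genes of highest r per member, and in each direction at most 5 called genes, or the 3 of smallest p where none was called. For the higher direction 3 genes not called were added after their values were seen. Results that rest on 1 further marker gene are not reported here. The members and lists were chosen with earlier results of these data known. Alternatives were the level at which a row counts as carried, the pseudocount, the detection filter, the block, the scaling and leaving out cells or captures.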

Additional observations from a re-analysis of the deposited data

How the results depend on the processing

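The share of cells with at least 2 Trav rows depended on the level that counts as carried. It was 77.0% at any value above 0, 76.4% at 1 and 36.0% at 100, against 59.0% at 10, and 11.8% with rows of 1 subgroup counted once. Leaving out 1 capture gave 48.8% to 67.7%, and for at least 1 Trav row 64.6% to 86.5%, for the margin a median of 1.07 to 1.27 and for Trac a difference of 3.83 to 4.57 with no test. In the class comparison limma called 2 genes with carried meaning at least 1 (Trac and Gm10123), 3 at 100 (Trac, B230359F08Rik and Trbj2-5), 2 with a pseudocount of 10 (Trac and Tnfaip8), 3 without the 3 mostly mitochondrial cells (Trac, Trbc2 and Trbj1-1) and 10 after quantile normalization (6 higher and 4 lower), against 1. B230359F08Rik follows the members that define the classes, so its call is no separate result. With no replicate block, so without the pairing of classes within a capture, 0 genes were called, 546 had an unadjusted p under 0.05, and Trac stood at 4.20 with an adjusted p of 0.328. With 4 runs as blocks Trac stood at 4.45 (adjusted p = 0.00287). Restricted to cells with Trac at 1000 or more, chosen after seeing the data, the Trac difference was 0.061 and 1 gene, Ypel3 (-4.49), was called. That selection is on Trac itself and narrows its range in advance, so it is no check of the Trac difference. Traj18 in Trav8-2 cells, with alternatives also added later, was carried by 47.3% at a level of 1, 83.3% at 100, 66.7% without March and 100% without April. The causes of these shifts were not tested. Of the values for single members and pairs 19 moved by more than the spread between captures and 48 did not. That spread is the standard deviation of the 2 capture values. Leaving out 1 capture returns the value of the other, which mostly lies within that spread by construction. Those settings therefore add little to the 48. Trac was called, at 3.48 to 4.45, under carried levels of 1 and 100, a pseudocount of 10, no detection filter, no mostly mitochondrial cells, 4 runs as blocks and quantile normalization. The share with at least 1 Trav row (64.6% to 89.9%) and the margin (1.06 to 1.27) moved by less than the spread between captures under the alternatives run. For leaving out a capture this was likewise nearly fixed in advance.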
